A study of Mus musculus with 6 samples.

Results

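Mitosis genes, whose products carry a cell through chromosome condensation, spindle assembly, chromosome segregation and cytokinesis, were compared between MICT1 KO and control cells. The 48 members were taken by gene symbol from a list that was chosen with earlier results of these data known. All 48 of them were found in the table of 13283 genes. The cells were of an immortalized line of mouse brown preadipocytes (BAT cells) that stably expresses Cas9. They had been put through brown adipocyte differentiation in culture, and the adipocyte markers of each group are given below. The 3 control libraries (Scr, genotype WT in the labels) were from cells transduced with scrambled sgRNA, and the 3 MICT1 KO libraries (labelled MICT1-CRISPR KO) were from CRISPR-Cas9 knockout pools, which are mixtures of edited cells rather than clones. Pools were made with 2 sgRNAs, and the labels do not tell which pool gave which library. Every culture, in both groups, had received forskolin, an activator of adenylyl cyclase that raises cAMP, at 10 µM for 6 h on day 6 of differentiation. The labels do not say whether libraries came from separate cultures, whereas the methods call all replicates biological.

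Entry into mitosis is driven by Cdk1 bound to cyclin B, which is switched on by Cdc25 phosphatases. The Aurora and Polo-like kinases then build the spindle, and the spindle checkpoint holds back the anaphase-promoting complex (APC/C) until every kinetochore is attached. Most of these genes are transcribed late in the cell cycle, in G2 and M, and are repressed in quiescent cells by the DREAM complex and activated in dividing cells by B-Myb and FoxM1. Terminally differentiated adipocytes are regarded as postmitotic, while cultured preadipocytes divide until they become confluent and pass through a few further rounds of division after induction.

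The values are normalized read counts, meaning the estimated reads of a gene after division by the size factor of its library. The libraries held between about 15400000 and 17900000 estimated reads. The limma-trend test was run on log2(value + 1) for the 12507 genes that reached a value of 10 in 3 or more libraries. Benjamini-Hochberg adjustment covered all of them, with 0.05 as the threshold. All 48 mitosis genes passed that filter, and the lowest value of any of them in any library was 162 (Cdc25c). The KO labels were not checked on the targeted gene, as MICT1 was not analysed here. Adipocyte markers were present in the Scr libraries, but Ucp1, the uncoupling protein of brown adipocytes, was low there. It had 20.8, 24.1 and 30.5 normalized reads in Scr against 1.91, 1.05 and 9.33 in MICT1 KO libraries. The log2 change of Ucp1, -2.71 (SE 0.64), thus rests on few reads. Adipoq, the adipokine adiponectin, was at 733, 468 and 672 normalized reads in Scr against 7.63, 3.16 and 5.18 in MICT1 KO libraries. All 10 of the adipocyte markers fell, against 28.3% of all genes tested. Log2 fold changes ranged from -6.66 for Adipoq to -2.31 for Pparg, with Plin1, Cidec, Cd36, Lipe, Fabp4, Cebpa, Ucp1 and Lpl between them, and their summed level was between 7531 and 9104 reads per 1000000 (CPM) in Scr and between 901 and 1308 CPM in MICT1 KO libraries. The part of this loss of adipocyte transcripts in the values of the mitosis genes was not tested. Of the 7 progenitor markers 5 were in the table, and the 4 that were tested moved apart. Ly6a (Sca-1) and Pdgfrb rose by 1.39 and 0.48 on the log2 scale, while Dlk1 (Pref-1) fell (log2 change -3.47), with 727, 661 and 674 normalized reads in Scr against 58.2, 44.3 and 89.1 in MICT1 KO libraries. Pdgfra was slightly lower (-0.19, limma-trend adjusted p = 0.0347), with overlapping groups and a call that was lost in 6 of the alternative fits, and Cd34 did not pass the filter. Their summed level, 266 to 311 CPM in Scr and 286 to 301 CPM in MICT1 KO libraries, adds up these opposite changes. Macrophage markers summed to 16.6 to 23.1 CPM in Scr and 31.8 to 39.2 CPM in MICT1 KO libraries, with Ptprc, Adgre1, Lyz2, Itgam, Cd163 and Aif1 not listed. Of the 4 listed, only Cd14 was called, with 130, 231 and 217 normalized reads in Scr against 465, 480 and 388 in MICT1 KO libraries (log2 fold change 1.24), and Csf1r, Cd68 and Mrc1 had overlapping groups. The only listed endothelial marker of 7 was Cdh5, which was called higher (log2 fold change 1.71) but reached at most 2.03 CPM, and the 2 listed muscle markers of 7, Acta1 and Des, had no call and summed to at most 5.74 CPM.

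The 48 mitosis genes were higher in MICT1 KO cells almost without exception. Of the 48 genes, 47 rose with an adjusted p under 0.05 and 0 fell (48 tested by limma-trend, 1 without a call), whereas 28.5% of all genes tested were called higher and 56.9% were called in either direction. The median log2 fold change was 0.77, with an interquartile range from 0.61 to 0.92, against a median of -0.0053 over all genes tested. Changes were moderate in size. At least 1.5-fold rises were found for 36 genes and at least 2-fold rises for 9, where 14.4% and 7.99% of all genes reached these limits. In 46 genes each MICT1 KO library lay above each Scr library (30.9% of all genes), and the groups overlapped in Cenpf and Ncaph. Together the 48 genes took up 0.552%, 0.516% and 0.497% of the summed values in Scr against 0.837%, 0.902% and 0.880% in MICT1 KO libraries. In bulk RNA, more cells in G2 and M and more of these transcripts per cell cannot be told apart. Normalized counts were high, with means of at least 1000 for 31 genes in Scr and 42 in MICT1 KO libraries. The median coefficient of variation was 5.94% among Scr and 4.57% among MICT1 KO libraries.

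**Figure D1:**
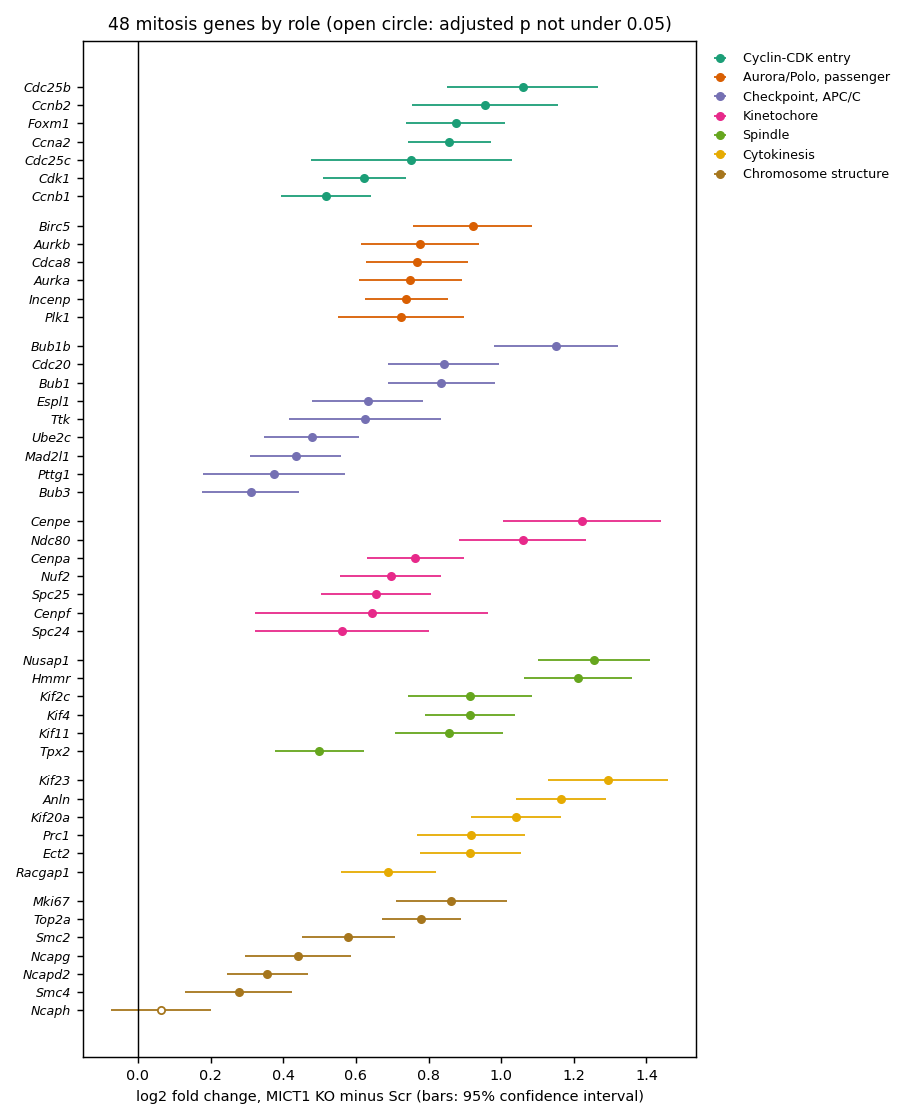
Log2 fold change (MICT1 KO minus Scr, x axis) of the 48 mitosis genes, grouped by role, with 95% confidence intervals from limma-trend (3 against 3 libraries); filled circles have an adjusted p under 0.05. Every gene lies to the right of 0, from 0.06 for Ncaph, the only open circle, to 1.29 for Kif23.

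The promoters of the members were searched for 2 elements known from cell cycle genes. These were the CHR, searched only as the letters TTTGAA, which the DREAM and B-Myb complexes bind, and the CCAAT box, which NF-Y binds. Other spellings of either element were not searched, so a gene without a match can still hold one. Since the list holds genes of this class, the shares describe the list and not its change in MICT1 KO cells. Windows of 300 bases (250 before to 50 after the start) were taken from RefSeq on GRCm38.p6 for 39 of the 48 genes, and both strands were searched. A match of one can share at most 1 base with a match of the other. TTTGAA was present in 32 of 42 windows of mitosis genes (76.2%), against 17.9% of all 32851 promoter windows and 12.1% of those of the genes tested. CCAAT was present in 33 of 42 windows (78.6%), against 37.4% of all windows and 38.5% of those of the genes tested. Both occurred in 29 windows (69.0%), against 6.95% of all. Neither motif was particular to these 48 genes. Among the lists described further below, 72 further mitosis genes had TTTGAA in 47.8%, CCAAT in 62.7% and both in 29.9% of windows. TTTGAA stood in 11.8% (APC/C), 22.2% (cohesin), 26.7% (G1/S) and 33.3% (DREAM and MuvB) of windows. For CCAAT the shares were 41.2%, 55.6%, 53.3% and 33.3% in the same order. Of 40 TTTGAA matches in mitosis genes, 29 began within 50 bases of the start, and the positions in other promoters were not computed. A match is a description of the letters and not evidence of a bound site. Incenp, Tpx2, Spc24, Cdc25c, Ccna2, Aurkb, Foxm1, Kif20a and Smc4 had no entry in the promoter table.

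The following windows show genes with both motifs (Ccnb2, chr9:70421505-70421804; Cdk1, chr10:69352863-69353162; Cdc20, chr4:118437294-118437593; Kif23, chr9:61946750-61947049; all on the minus strand) and genes with neither (Nusap1, chr2:119618048-119618347, plus strand; Ncaph, chr2:127133905-127134204, minus strand), printed 5′ to 3′ along the gene with each TTTGAA or CCAAT match, in either orientation, in capitals.
Ccnb2: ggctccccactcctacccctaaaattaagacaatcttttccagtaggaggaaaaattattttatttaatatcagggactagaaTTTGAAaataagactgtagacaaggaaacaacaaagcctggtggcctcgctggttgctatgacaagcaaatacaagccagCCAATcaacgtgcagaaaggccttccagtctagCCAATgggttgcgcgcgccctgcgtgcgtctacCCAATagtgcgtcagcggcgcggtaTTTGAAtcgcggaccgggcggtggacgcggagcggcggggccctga
Cdk1: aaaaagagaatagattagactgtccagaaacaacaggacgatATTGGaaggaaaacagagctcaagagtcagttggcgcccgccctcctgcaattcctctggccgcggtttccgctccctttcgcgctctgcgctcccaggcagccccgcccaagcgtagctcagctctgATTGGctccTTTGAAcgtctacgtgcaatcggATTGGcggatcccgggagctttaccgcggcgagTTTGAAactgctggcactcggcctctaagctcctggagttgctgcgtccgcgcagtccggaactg
Cdc20: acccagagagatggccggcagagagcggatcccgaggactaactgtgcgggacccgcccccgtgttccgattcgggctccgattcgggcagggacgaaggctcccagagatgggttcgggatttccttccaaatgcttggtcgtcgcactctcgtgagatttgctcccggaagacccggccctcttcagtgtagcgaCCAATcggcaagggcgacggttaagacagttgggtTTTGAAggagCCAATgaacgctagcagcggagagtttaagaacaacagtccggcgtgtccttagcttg
Kif23: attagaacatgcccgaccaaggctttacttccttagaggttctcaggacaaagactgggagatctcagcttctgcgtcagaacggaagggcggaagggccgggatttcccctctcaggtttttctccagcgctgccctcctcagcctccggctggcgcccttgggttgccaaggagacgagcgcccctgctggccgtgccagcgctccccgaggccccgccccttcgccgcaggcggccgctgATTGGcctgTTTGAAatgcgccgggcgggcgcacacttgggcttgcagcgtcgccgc
Nusap1: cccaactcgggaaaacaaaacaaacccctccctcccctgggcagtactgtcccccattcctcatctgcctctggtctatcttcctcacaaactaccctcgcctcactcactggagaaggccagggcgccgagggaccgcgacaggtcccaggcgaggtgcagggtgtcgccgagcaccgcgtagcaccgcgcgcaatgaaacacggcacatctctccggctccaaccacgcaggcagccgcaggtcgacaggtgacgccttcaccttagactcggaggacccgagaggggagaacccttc
Ncaph: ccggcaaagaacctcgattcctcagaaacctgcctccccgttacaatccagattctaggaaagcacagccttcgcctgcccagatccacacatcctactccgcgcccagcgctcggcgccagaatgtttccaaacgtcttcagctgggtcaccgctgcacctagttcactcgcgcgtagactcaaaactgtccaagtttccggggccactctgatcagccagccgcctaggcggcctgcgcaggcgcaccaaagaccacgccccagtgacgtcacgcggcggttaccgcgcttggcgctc
In Ccnb2 3 CCAAT boxes stand upstream of a TTTGAA that begins 5 bases after the start, and in Cdk1 a TTTGAA lies 15 bases before the start. Kif23, with the largest rise of the 48 genes, has a TTTGAA 3 bases after the start. Nusap1, with the second largest rise, has neither set of letters in this window, and nor does Ncaph, with the smallest change. The median log2 fold change was 0.77 in the 29 genes with TTTGAA and 0.77 in the 10 genes without it (Birc5, Bub1, Ccnb1, Cdc25b, Cenpe, Mad2l1, Ncaph, Nuf2, Nusap1 and Pttg1). For CCAAT the medians were 0.77 in the 30 genes with it and 0.92 in the 9 genes without it, and the ranges of log2 fold change, from 0.31 to 1.29 and from 0.06 to 1.26, overlapped.

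All 7 genes of mitotic entry rose, with a median log2 fold change of 0.86. Cdk1, the kinase that triggers mitosis (chromosome 10, from 69335146 to 69352912, GRCm38), had normalized counts of 3586, 3634 and 3336 in Scr against 5574, 5397 and 5278 in MICT1 KO libraries. The groups were well apart, with a fitted log2 change of 0.62 (SE 0.055, limma-trend adjusted p = 4.37e-09). Its partner Ccnb1 (cyclin B1; chromosome 13, from 100778739 to 100786486) was at 1740, 1698 and 1618 in Scr against 2421, 2349 and 2467 in MICT1 KO libraries, the smallest rise of this group (log2 change 0.52, SE 0.060, limma-trend adjusted p = 2.54e-07). The other B-type cyclin, Ccnb2, rose by more (0.96, 95% confidence interval 0.75 to 1.16), and this interval does not meet that of Ccnb1 (0.39 to 0.64). Ccna2, cyclin A2, which acts in S phase and G2, rose from 4972 ± 306 (SD, n = 3) to 8996 ± 98.8 (SD, n = 3).

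Cdc25b, the phosphatase that starts Cdk1 activation at the centrosome (chromosome 2, from 131186436 to 131198511), rose most in this group. Its counts were 546, 458 and 428 in Scr against 1121, 949 and 914 in MICT1 KO libraries, a fitted log2 change of 1.06 (SE 0.10, limma-trend adjusted p = 1.24e-08). Cdc25c, which acts in the same step, had the fewest reads, 176 ± 18.1 (SD, n = 3) and 297 ± 7.30 (SD, n = 3), and a log2 fold change of 0.75. Foxm1, a transcription factor that activates G2 and M genes (chromosome 6, from 128362994 to 128375886), was at 2084, 2077 and 1827 in Scr against 3461, 3902 and 3611 in MICT1 KO libraries. It rose with a fitted log2 change of 0.87 (SE 0.065, limma-trend adjusted p = 3.11e-10), and every MICT1 KO library exceeded every Scr library.

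The Aurora and Polo-like kinases and the chromosomal passenger complex, in which Aurkb is held at the centromere by Incenp, Birc5 (survivin) and Cdca8 (borealin), moved within a narrow range. All 6 genes rose, from 0.72 to 0.92 on the log2 scale. Birc5 was at 1302, 1291 and 1122 in Scr against 2508, 2479 and 2063 in MICT1 KO libraries (log2 change 0.92, SE 0.078, limma-trend adjusted p = 2.61e-09). For Aurkb (chromosome 11, from 69045624 to 69051664) the counts were 1076, 1020 and 866 in Scr against 1753, 1687 and 1616 in MICT1 KO libraries (log2 change 0.78, SE 0.078, limma-trend adjusted p = 3.18e-08). Incenp and Cdca8, at 0.74 and 0.77, had changes close to that of Aurkb, and the 95% confidence intervals of all 4 passenger genes overlapped. Plk1, which acts from centrosome maturation to cytokinesis, spread more within Scr, with 1681, 1421 and 1220 against 2391, 2310 and 2383 in MICT1 KO libraries (log2 change 0.72, SE 0.084, limma-trend adjusted p = 2.53e-07). Aurka, the kinase of the spindle poles, rose from 1122 ± 53.4 (SD, n = 3) to 1888 ± 115 (SD, n = 3).

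Among the 9 genes of the spindle checkpoint and of anaphase onset, all rose but the size varied, from 0.31 to 1.15. Bub1b (BubR1; chromosome 2, from 118598202 to 118641592), which together with Mad2 and Bub3 inhibits Cdc20, had counts of 684, 603 and 557 in Scr against 1396, 1391 and 1299 in MICT1 KO libraries. It was the only one of these genes to at least double (log2 change 1.15, SE 0.082, limma-trend adjusted p = 1.67e-10). At the other end was Bub3, which binds Bub1 and Bub1b at the kinetochore, with 1852, 1758 and 1656 in Scr against 2280, 2175 and 2073 in MICT1 KO libraries (log2 change 0.31, SE 0.064, limma-trend adjusted p = 3.18e-04). The groups did not overlap in either gene, and the confidence intervals of the 2 changes (0.98 to 1.32 and 0.18 to 0.44) were apart. Bub1 rose by 0.84 and Mad2l1 by 0.43 on the log2 scale, and Ttk (Mps1), the kinase that starts checkpoint signaling, by 0.62.

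Cdc20, the APC/C activator that the checkpoint restrains (chromosome 4, from 118432901 to 118437343), was at 1719, 1616 and 1360 in Scr against 2914, 2746 and 2716 in MICT1 KO libraries, a fitted log2 change of 0.84 (SE 0.074, limma-trend adjusted p = 4.27e-09). Ube2c, the ubiquitin-conjugating enzyme of the APC/C, rose by 0.48. Pttg1 (securin), the APC/C substrate that keeps separase inactive, rose by 0.38, and Espl1, separase itself, by 0.63. The confidence intervals of the latter pair overlapped (0.18 to 0.57 and 0.48 to 0.79).

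All 7 centromere and kinetochore genes rose. Cenpe, a kinesin that moves chromosomes to the spindle equator (chromosome 3, from 135212563 to 135273540), had counts of 1643, 1337 and 1357 in Scr against 2640, 3785 and 3787 in MICT1 KO libraries. KO replicate 1 was the lowest of its group but still above every Scr library (log2 change 1.22, SE 0.10, limma-trend adjusted p = 2.80e-09). Cenpf, a large protein of the outer kinetochore, was at 1058, 858 and 914 in Scr against 973, 1917 and 1697 in MICT1 KO libraries. Here KO replicate 1 fell inside the Scr range. The log2 fold change of Cenpf was 0.64 (SE 0.15, limma-trend adjusted p = 0.00131), the largest standard error of the 48 genes, and without that library it was 0.94.

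The NDC80 complex, which couples the kinetochore to microtubules, has 4 subunits in the list. Ndc80 rose from 565 ± 57.2 (SD, n = 3) to 1174 ± 13.1 (SD, n = 3), which is a log2 fold change of 1.06 with a 95% confidence interval from 0.88 to 1.23. Nuf2, which pairs with Ndc80, changed less (0.70, interval 0.56 to 0.84), as did Spc25 (0.66, interval 0.50 to 0.81). Spc24 had the smallest rise of the 7 genes, at 261, 238 and 275 in Scr against 376, 365 and 403 in MICT1 KO libraries (log2 change 0.56, SE 0.12, limma-trend adjusted p = 3.04e-04). The intervals of Nuf2, Spc25 and Spc24 overlapped. Cenpa, the histone H3 variant that marks the centromere, rose from 1259 ± 44.1 (SD, n = 3) to 2138 ± 102 (SD, n = 3).

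**Figure D2:**
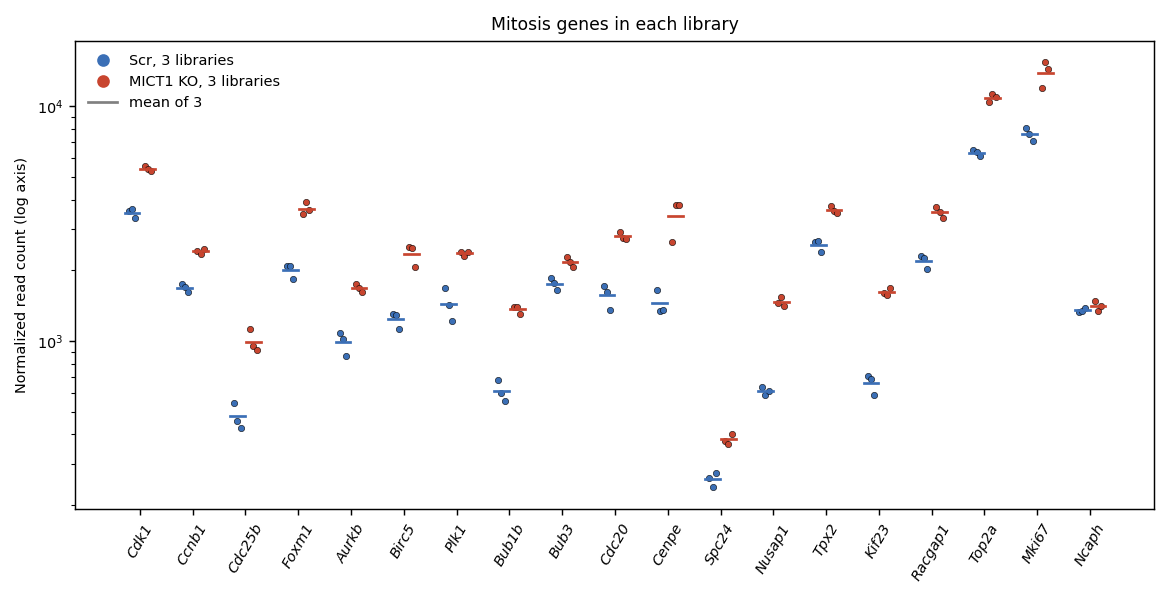
Normalized read count (log axis) in each of the 3 Scr and 3 MICT1 KO libraries for 19 mitosis genes, with lines at the group means. The MICT1 KO points lie above all Scr points in every gene shown except Ncaph, where 1342 to 1486 overlaps 1329 to 1387.

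Spindle genes followed the same direction, with 6 of 6 higher and a median log2 fold change of 0.91. Nusap1, which bundles spindle microtubules near chromatin (chromosome 2, from 119618298 to 119650165), rose from 635, 590 and 610 in Scr to 1448, 1535 and 1402 in MICT1 KO libraries (log2 change 1.26, SE 0.074, limma-trend adjusted p = 6.31e-12). Hmmr, a spindle-pole protein that binds Tpx2, rose by nearly as much (1.21). Tpx2 itself, which activates Aurora A on the spindle (chromosome 2, from 152847964 to 152895321), had the smallest rise of the group, at 2627, 2656 and 2389 in Scr against 3770, 3559 and 3513 in MICT1 KO libraries (log2 change 0.50, SE 0.059, limma-trend adjusted p = 3.70e-07). The motor genes stood between them. Kif11 (Eg5), the kinesin that separates the poles, rose by 0.86, Kif2c, which depolymerizes microtubules at the centromere, by 0.91, and Kif4, a chromosome-bound kinesin, by 0.91.

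Genes of the central spindle and cytokinesis had the highest median of the 7 role groups, 0.98, and 6 of 6 rose. Kif23, the kinesin of the centralspindlin complex (chromosome 9, from 61917277 to 61946810), was at 706, 692 and 586 in Scr against 1602, 1575 and 1681 in MICT1 KO libraries, the largest change of the 48 genes (log2 change 1.29, SE 0.079, limma-trend adjusted p = 1.24e-11). Its partner in that complex, Racgap1, changed least in this group, with 2295, 2258 and 2029 in Scr against 3705, 3553 and 3352 in MICT1 KO libraries (log2 change 0.69, SE 0.062, limma-trend adjusted p = 6.53e-09). The 2 confidence intervals (1.13 to 1.46 and 0.56 to 0.82) did not meet. Anln (anillin), a scaffold of the cleavage furrow, rose from 1962 ± 134 (SD, n = 3) to 4391 ± 71.2 (SD, n = 3), with the lowest adjusted p of the 48 genes (7.02e-13, limma-trend). Kif20a, a central spindle kinesin, rose by 1.04, Prc1, which cross-links antiparallel microtubules, by 0.92, and Ect2, the RhoA exchange factor that starts furrowing, by 0.91.

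Genes that shape chromosomes were the most divided group, with 6 of 7 higher and a median log2 fold change of 0.44. Mki67, which encodes Ki-67, the coat protein of mitotic chromosomes used as a marker of dividing cells (chromosome 7, from 135689784 to 135716450), was at 8085, 7607 and 7136 in Scr against 11894, 15405 and 14392 in MICT1 KO libraries. It rose with a fitted log2 change of 0.86 (SE 0.073, limma-trend adjusted p = 2.64e-09), and KO replicate 1 was again the lowest of its group. Top2a, the topoisomerase that untangles sister chromatids (chromosome 11, from 98992947 to 99024199), was at 6473, 6364 and 6154 in Scr against 10415, 11278 and 10915 in MICT1 KO libraries (log2 change 0.78, SE 0.052, limma-trend adjusted p = 5.67e-11). The remaining 5 genes of the group encode the condensin I complex, which compacts chromosomes.

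The condensin I subunits, a grouping made after their values were seen, had log2 fold changes from 0.06 to 0.58 with a median of 0.36, and the other 43 members ranged from 0.31 to 1.29 with a median of 0.78. The ATPase subunits Smc2 and Smc4 rose by 0.58 and 0.28, and the subunits Ncapd2 and Ncapg by 0.36 and 0.44. Smc4 counts were 5928, 5599 and 5592 in Scr against 5948, 7626 and 7277 in MICT1 KO libraries, so that KO replicate 1 stood barely above Scr replicate 1. Ncaph, the kleisin subunit that closes the ring (chromosome 2, from 127103809 to 127133954), was the only mitosis gene without a call. Its counts were 1329, 1335 and 1387 in Scr against 1486, 1342 and 1411 in MICT1 KO libraries, for a log2 fold change of 0.06 with a 95% confidence interval from -0.073 to 0.20 (adjusted p = 0.424 from limma-trend). The interval reaches at most a 0.20 rise, which is below the lower bound of Top2a (0.67) and Mki67 (0.71). It overlaps the interval of Smc4 (0.13 to 0.42) in the same group, and those of Bub3 (0.18 to 0.44) and Pttg1 (0.18 to 0.57).

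Levels can be compared between genes only per length, so reads per kilobase of exon and per 1000000 reads (RPKM) were computed with exon lengths from GENCODE vM21, found for all 48 genes. The length of a gene joined the annotated exons of all its transcripts. It can exceed that of the transcript present, so the order of genes is approximate. In Scr libraries Ccna2 had the highest mean level, 74.4 RPKM, followed by Smc4 (66.9), Cdc20 (51.2), Mki67 (46.2), Cdk1 (43.6) and Top2a (42.9). In MICT1 KO libraries Ccna2 again came first at 135 RPKM, ahead of Cdc20 (91.6), Mki67 (84.7), Smc4 (81.8), Top2a (73.9) and Cdk1 (67.3). Smc4 thus went from a place behind Ccna2 alone to one behind Cdc20 and Mki67 as well. The lowest levels were those of Cdc25c (2.19 RPKM in Scr and 3.69 in MICT1 KO libraries) and Cenpf (3.74 and 6.08).

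Within the MICT1 KO group, KO replicate 1 stood apart in some genes. Against the mean of the other 2 KO libraries it was lower by 0.89 on the log2 scale for Cenpf, 0.52 for Cenpe, 0.32 for Smc4 and 0.32 for Mki67, and 6 of the 48 genes were more than 0.2 lower. These tended to be genes with a large exon length. Over the 48 genes, which share the same library and its depth, Spearman's correlation of this difference with exon length was -0.52, and the median difference was -0.075 in the 24 genes of at least 5000 bases and 0.053 in the shorter ones. In KO replicates 2 and 3 the correlation was 0.43 and 0.37, values that are not independent of the first since each is taken against the other libraries. Among Scr libraries it lay between -0.076 and 0.10. The Scr libraries differed in level as well. Scr replicate 3 was more than 0.2 below the mean of the other 2 in 13 genes and above it in 0 (median -0.105). Scr replicate 1 was more than 0.2 above in 10 genes and below in 1 (median 0.090). For KO replicate 1, only 1 gene was more than 0.2 higher, and its median was 0.017. Without KO replicate 1 the median log2 fold change of the 48 genes was 0.75, and 47 were again called higher.

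**Figure D3:**
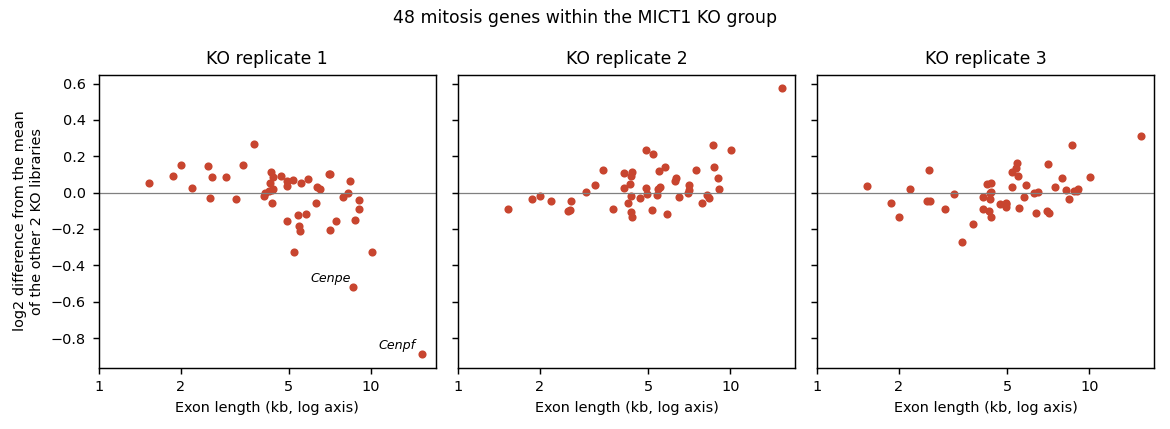
Log2 difference of each MICT1 KO library from the mean of the other 2 (y axis) against exon length in kilobases (log axis) for the 48 mitosis genes. In KO replicate 1 the points slope down, with Cenpe (-0.52) and Cenpf (-0.89) lowest.

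Lists of other genes of the same processes, drawn up by function with earlier results of these data known, were less uniform. For all of them the counts stand against 28.5% of all genes tested called higher and 28.3% called lower. Of 72 further mitosis genes, 55 rose and 5 fell past the threshold of the same limma-trend test, and the median log2 fold change was 0.55. Gtse1, a microtubule-binding protein made mainly in G2, rose most, from 829 ± 54.0 (SD, n = 3) to 2396 ± 78.4 (SD, n = 3), which is a log2 fold change of 1.53. The genes that fell were Cdc25a (-0.54), Wee1 (-0.39), Cenpm (-0.26), Pkmyt1 (-0.21) and Ncaph2 (-0.14). Wee1 and Pkmyt1 encode the kinases that hold Cdk1 inactive, and Cdc25a a phosphatase that acts on Cdk2 at the start of S phase as well as on Cdk1. Cdc25a was at 2503, 2377 and 2539 in Scr against 1664, 1703 and 1726 in MICT1 KO libraries, in the opposite direction to Cdc25b and Cdc25c. The calls of Cenpm, Pkmyt1 and Ncaph2 were lost when single libraries were left out, and those of Pkmyt1 and Ncaph2 also with upper-quartile scaling (adjusted p of 0.0670 and 0.129, limma-trend). Ncaph2 lost its call with library-size scaling and limma-voom as well.

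For the core APC/C, which Cdc20 and Ube2c serve, 15 genes of its subunits and of Fzr1, its G1 activator, were tested. Among them 6 (40.0%) rose and 2 (13.3%) fell (median log2 fold change 0.012), with Cdc23 highest (0.46) and Anapc16 lowest (-0.29). Cohesin, the ring that holds sister chromatids together until Espl1 cuts it, had more genes lower than higher. Among 13 genes of cohesin and its partners 7 (53.8%) fell, against 28.3% of all genes tested, and 2 (15.4%) rose, with a median of -0.17. Stag2, a cohesin subunit, fell most, from 3520, 3721 and 4123 in Scr to 2105, 2431 and 2380 in MICT1 KO libraries (log2 change -0.72, SE 0.068, limma-trend adjusted p = 1.29e-08). Esco2, the acetyltransferase that locks cohesin on DNA in S phase, rose by 0.77.

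Of 15 genes of the G1/S transition, 7 (46.7%) rose and 5 (33.3%) fell, the latter a share close to the 28.3% of all genes, with a median log2 fold change of -0.043. Ccnd1, cyclin D1, rose from 412 ± 27.3 (SD, n = 3) to 924 ± 33.0 (SD, n = 3), which is a log2 fold change of 1.17, while E2f2, an activator of S phase genes, fell with a log2 fold change of -0.78, from 212 ± 25.4 (SD, n = 3) to 124 ± 25.4 (SD, n = 3). Another list held 12 genes of the DREAM and MuvB complexes, which are known to repress or activate genes of G2 and M. Of these, 1 (8.33%) rose and 3 (25%) fell, the latter again near the share of all genes, with a median of -0.036. Mybl2, which encodes B-Myb, fell from 2996, 3212 and 3119 in Scr to 2018, 2055 and 2023 in MICT1 KO libraries (log2 change -0.61, SE 0.057, limma-trend adjusted p = 9.30e-09), opposite to Foxm1, and Tfdp1, an E2F partner, rose by 0.29.

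Inhibitors of cyclin-dependent kinases (CDK) changed in both directions, with 4 of 7 higher (57.1%) and 2 lower (28.6%). Cdkn1c (p57) fell from 292, 322 and 314 in Scr to 20, 13.7 and 32.1 in MICT1 KO libraries, a fitted log2 change of -3.84 (SE 0.26, limma-trend adjusted p = 5.29e-11). Cdkn2d (p19INK4d) and Cdkn2b (p15) rose by 0.85 and 0.83, and Cdkn2c (p18) and Cdkn2a, the p16 and p19Arf locus, by 0.42 and 0.39. Cdkn1a (p21), the p53-induced inhibitor, was at 13549, 15990 and 15664 in Scr against 15778, 14166 and 15226 in MICT1 KO libraries, with overlapping groups. Cdkn1b (p27) was lower by a small amount (-0.14, adjusted p = 0.0449 from limma-trend), and this call was lost in 5 of the alternative fits.

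**Figure D4:**
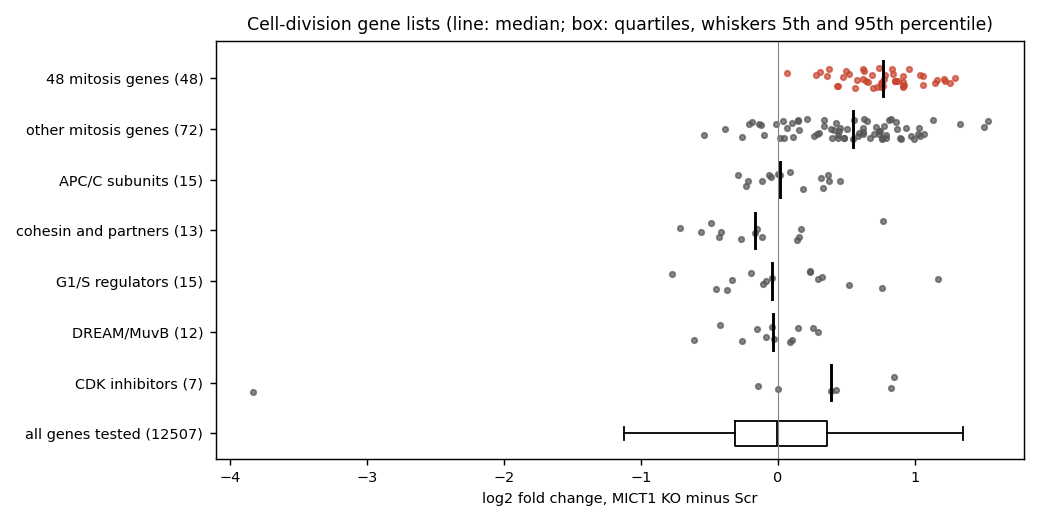
Log2 fold change (MICT1 KO minus Scr) of the 48 mitosis genes and of 6 further lists, one point per gene with a line at the list's median, above a box for all 12507 genes tested (quartiles, whiskers at the 5th and 95th percentile). The 48 mitosis genes lie entirely above 0 with a median of 0.77, while each of the 6 further lists has genes on both sides. Their medians are 0.55 (other mitosis genes), 0.012 (APC/C), -0.17 (cohesin), -0.043 (G1/S), -0.036 (DREAM) and 0.39 (CDK inhibitors).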

How the data were processed

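RNA-seq was measured in 3 Scr and 3 MICT1 KO libraries, grouped by their titles in the labels. The authors aligned reads to mouse GRCm38/mm10 in Partek software, and the submitters' processing notes also name STAR and DESeq2, with no role given. The counter and the gene annotation are not given in the sources used here. The deposited values are a normalized signal per gene, not whole counts: between 88.8% and 90.3% of values under 20 were whole multiples of a library's step (tolerance 0.01), and every value is above 0. Reads split between related genes cannot be separated. Depth was estimated from that step.

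No count model was run. limma 3.58.1 in R 4.3.3 (limma-trend, pseudocount 1, two-sided) was fitted to all genes as planned. Its trial on simulated data used whole counts with few changed genes, unlike these values, and does not show how it performs on them. Fold changes on the log2(value + 1) scale slightly understate low genes. An exact permutation test of 3 against 3 libraries cannot go below p = 0.1, so single genes rest on the spread shared by limma.

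The members and lists were chosen with earlier results of these data known. Per-library values are given for the highest and lowest change in each role group and for Cdk1, Ccnb1, Foxm1, Aurkb, Cdc20, Top2a and Mki67, as well as for Cenpf and Smc4, which were chosen after their values were seen. From each other list the largest rise and fall past the threshold are named, with all tested genes where these number 7 or fewer, and marker genes where the table lists them. Alternatives were other scalings, limma-voom, filters, pseudocounts, a replicate block and leaving out single libraries.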

Additional observations from a re-analysis of the deposited data

How the results depend on the processing

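The 48 mitosis genes kept their calls in all 14 alternatives, 47 higher, 0 lower and Ncaph without a call. Leaving out single libraries gave medians from 0.75 to 0.79. With upper-quartile scaling it was 0.80, where the median of all genes tested also moved, from -0.0053 to 0.032, and calls over all genes went from 3569 higher and 3544 lower to 3833 and 3193. Further mitosis genes called lower numbered 3 with upper-quartile scaling, 4 with library-size scaling or limma-voom and from 3 to 5 when single libraries were left out. Among the genes named from other lists that had no call, the only ones whose alternatives were examined singly, leaving out libraries changed the sign of Cdkn1a (-0.073 to 0.046; -0.073, -0.033 and -0.0074 without Scr 1, KO 1 and KO 3), Cd68 (-0.69 to 0.11; 0.11 without Scr 2 or KO 3) and Mrc1 (-0.17 to 0.18; -0.014 without Scr 1 and -0.17 without KO 3). The causes were not tested.

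Same-numbered Scr and KO libraries did not deviate together (correlations of -0.024, -0.016 and 0.064 over the genes tested), so the numbers were not taken as pairs. Only number 3 correlated best with its own. With the replicate number as a block, 3543 genes were higher and 3512 lower, 47 mitosis genes were higher and 0 lower with a median of 0.77, and 55 and 4 further mitosis genes were higher and lower. The call of Ncaph2 was lost (-0.14, adjusted p = 0.0534 from limma-trend).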
